A study of Homo sapiens with 11 samples.

Results

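The genes described here are 42 human genes of the interferon response, of 25590 genes listed in the tables. They were chosen by name: interferon-stimulated genes, the interferon-gamma receptor and the JAK, STAT and IRF genes that carry its signal, without HLA and proteasome genes. The rule that picked them names genes and uses no measured value, though they were chosen with earlier results of these data known. The RNA came from 11 tumours of PC-3, an established human prostate carcinoma cell line, grown under the skin of male athymic nude mice (Crl:NU-Foxn1nu, 8 weeks old) after injection with matrigel. A total of 5 tumours, T123 to T127, came from mice given PBS, and 6 tumours, T128 to T132 and T112, from mice given A2M, alpha2-macroglobulin in its transformed form, by intraperitoneal injection from day 7 at 5.6 mg per 20 g body weight. Athymic mice lack mature T cells and keep other immune cells, and all 11 tumours shared this host. Each tumour gave 1 library, and the labels do not say whether each tumour came from a separate mouse, so p-values measure only the spread between these tumours.

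Interferons are secreted proteins, and cells release those of type I on sensing viral or displaced nucleic acid. Type I interferons signal through JAK1 and TYK2 to a complex that holds STAT2 and IRF9 and binds a DNA motif called ISRE, and interferon-gamma signals through IFNGR1, IFNGR2, JAK1 and JAK2 to a motif called GAS. The genes so induced encode antiviral proteins, sensors and factors of the pathway itself, and many carcinoma lines express them without added interferon.

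Promoter windows of RefSeq (GRCh38.p14, from 250 bases before to 50 after a transcription start) were found for 34 of the 42 genes, DDX58 under its name RIGI. USP18, IRF7, DHX58, IFIT2, OAS2, OASL, IFITM2 and GBP2 had no entry in the table used. An ISRE-type match was taken as GAAA, any 2 bases and GAAA on either strand, and a GAS-type match as TTC, any 3 bases and GAA, which is its own reverse complement. The 2 motifs can overlap each other where their GAA bases meet. An ISRE-type match stood in 21 of the 34 genes (61.8%), against 4.38% of the 27305 genes with a window and 3.57% of all 35116 windows. A GAS-type match stood in 10 of the 34 genes (29.4%), against 9.38% of all genes and 7.66% of all windows. The receptors and kinases IFNGR1, IFNGR2, JAK1 and JAK2 had no match of either kind in their windows, while 21 of the 30 other genes (70%) had an ISRE-type match. These matches describe letters in a window, and no binding was measured.

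The 200 bases before the start are printed for 6 genes, 5′ to 3′ on the strand of the gene. Capitals mark the ISRE-type matches in ISG15 and IFI6, which were among the genes with the highest levels, in IFIT1, the first-named member of its family, and in HERC5, a gene with 1 of the smallest p-values below. In IFIT1 and HERC5 the matches lie on the opposite strand and read TTTC, any 2 bases and TTTC. In IRF1 the capitals mark the GAS-type match, and IFNGR2 is shown as a receptor gene with no match.
ISG15, chr1:1013297-1013496, plus strand: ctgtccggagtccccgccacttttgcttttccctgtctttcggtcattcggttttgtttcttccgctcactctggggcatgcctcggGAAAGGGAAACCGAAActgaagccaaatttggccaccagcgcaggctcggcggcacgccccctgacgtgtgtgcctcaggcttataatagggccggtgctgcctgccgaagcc
IFI6, chr1:27672193-27672392, minus strand: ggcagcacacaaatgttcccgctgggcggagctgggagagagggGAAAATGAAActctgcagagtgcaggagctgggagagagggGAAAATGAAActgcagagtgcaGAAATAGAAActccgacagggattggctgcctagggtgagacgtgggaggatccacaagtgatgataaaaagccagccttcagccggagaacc
IFIT1, chr10:89392423-89392622, plus strand: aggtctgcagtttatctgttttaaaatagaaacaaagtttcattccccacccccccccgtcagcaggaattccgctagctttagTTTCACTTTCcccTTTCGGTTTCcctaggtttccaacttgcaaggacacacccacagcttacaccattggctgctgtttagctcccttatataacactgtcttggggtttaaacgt
HERC5, chr4:88456919-88457118, plus strand: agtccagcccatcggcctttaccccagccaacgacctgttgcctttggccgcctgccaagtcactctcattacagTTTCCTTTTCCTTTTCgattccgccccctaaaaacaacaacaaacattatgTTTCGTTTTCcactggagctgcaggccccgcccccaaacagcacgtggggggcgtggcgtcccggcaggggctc
IRF1, chr5:132490774-132490973, minus strand: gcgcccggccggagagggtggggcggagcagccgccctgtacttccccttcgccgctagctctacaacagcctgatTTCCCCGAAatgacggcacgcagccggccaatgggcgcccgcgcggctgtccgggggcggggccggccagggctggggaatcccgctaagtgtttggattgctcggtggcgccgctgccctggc
IFNGR2, chr21:33403213-33403412, plus strand: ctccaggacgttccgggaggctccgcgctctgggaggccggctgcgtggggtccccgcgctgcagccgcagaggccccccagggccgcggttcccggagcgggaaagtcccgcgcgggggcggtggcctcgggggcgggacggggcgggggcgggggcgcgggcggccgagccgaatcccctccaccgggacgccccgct
IFI6 held 3 separate matches, whereas in ISG15 the 2 matches shared bases, and in HERC5 2 of the 3 did.

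**Figure D1:**
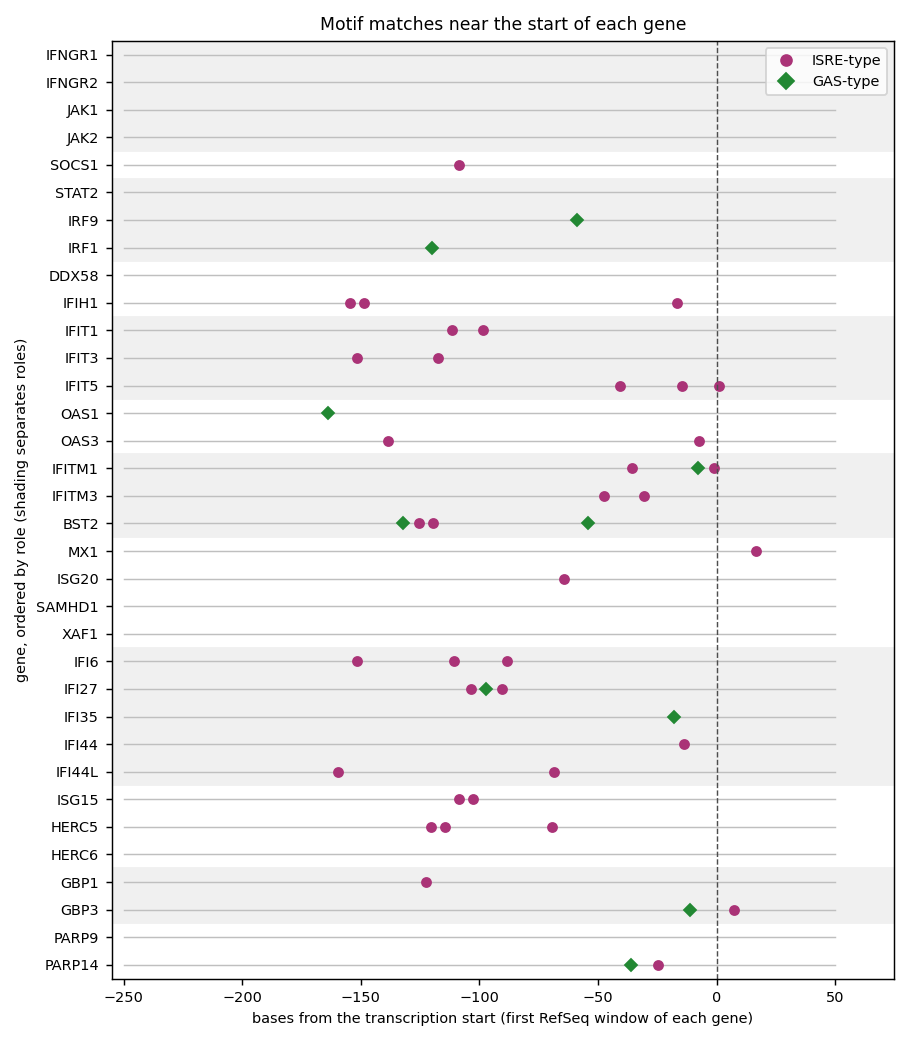
Position of ISRE-type (circles) and GAS-type (diamonds) matches in the first RefSeq promoter window of each of the 34 genes, in bases from the transcription start (dashed line). The 4 receptor and kinase genes at the top hold no match. Further windows of IFIT3, MX1, IFI27 and IFI44, not drawn, hold more matches, and the only match of PARP9 lies in a window not drawn.

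Totals per tumour lay between 16958533 counts in T129 and 35874381 in T127, so that 3 counts, the least amount taken as shown, were worth 0.0836 to 0.177 RPM (reads per 1000000 counted reads, counting error only). Epithelial markers were present, with KRT8 at 205 to 280 RPKM, KRT18 at 257 to 376 and EPCAM at 130.8 to 192. RPKM is RPM per 1000 bases of exon, so levels of different genes can be compared on it. KLK3, a marker of luminal prostate cells, was at 0 counts in all 11 tumours. Of 8 human leukocyte markers, 3 stayed at or under 10 counts in every tumour, AIF1 had at most 1 count and CD3E at most 4. The summed leukocyte RPKM was 5.07 to 6.02 in PBS and 5.98 to 6.71 in A2M tumours, most of it LYZ. Endothelial markers summed to 3.25 to 5.18 RPKM over all tumours. Of the fibroblast markers COL1A1 lay at 49.7 to 148 RPKM, while DCN and LUM had at most 3 and 5 counts. Mouse reads had been set apart before counting, and how far reads of the host were left among those called human was not tested.

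Of the 42 genes, 41 were high enough to be tested. DHX58, which encodes the RNA sensor LGP2, had 0 to 3 counts per tumour and was not. Median RPKM over the 11 tumours was 100 or more in 4 genes, 10 to 100 in 31 and 1 to 10 in 6. By mean RPKM, 10 of the 41 genes lay above the 90th percentile of all genes tested and 4 below the median (JAK2, SOCS1, HERC5 and IFIT5).

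**Figure D2:**
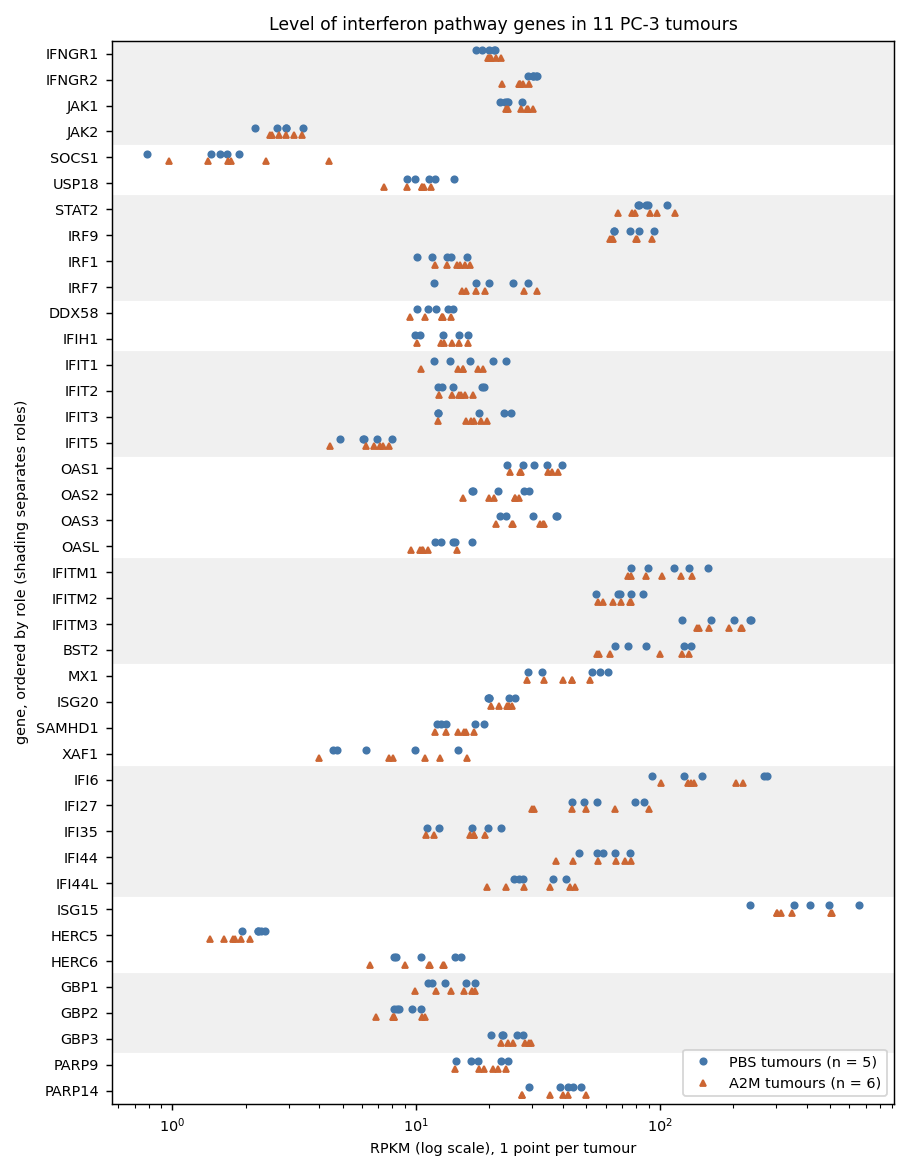
RPKM (log axis) of the 41 tested genes in each PBS tumour (circles, n = 5) and A2M tumour (triangles, n = 6), ordered by role. ISG15, at 234 to 655 RPKM, stood highest, and the PBS and A2M points overlap in every gene drawn, in HERC5 and IFNGR2 only at their edges.

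A2M against PBS asks whether the injected protein altered these genes in the tumour cells. No gene of the 41 passed an adjusted p of 0.01 (edgeR quasi-likelihood test, Benjamini-Hochberg over all 16630 genes tested), and 0% of all genes did. The smallest adjusted p among them was 0.599. DESeq2 also called 0 of the 41, and 1 of all genes (0.00601%). At an unadjusted p under 0.05 stood 3 of the 41 genes (7.32%), HERC5, IFNGR2 and OASL, all lower in A2M. Of all genes tested, 7.08% reached that p in either direction with 3.53% on the lower and 3.55% on the higher side, and by DESeq2 the numbers were 3 of the 41 and 7.41% of all genes. Over both directions, the share of these genes was thus close to the background. By side, 3 of the 41 were lower against 3.53% of all genes, and 0 were higher against 3.55%. These shares were not tested.

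The 95% interval of the log2 fold change lay inside a doubling or halving for 40 of the 41 genes, SOCS1 being the exception, and inside 1.5-fold for 31. The log2 fold change was below 0 in 31 of the 41 genes, against 50.6% of all genes, with a median of -0.08 against -0.0021 over all genes. That split was 27 of 41 with library size alone or upper-quartile factors, 23 without T127 and 22 without T129. The median was -0.04 with library size alone, where that of all genes was 0.04, and single tumours moved it to -0.01 (without T127), -0.02 (without T123), -0.04 (without T129), -0.05 (without T131), -0.14 (without T125 or T132) or -0.15 (without T126). In bulk tumours, fewer cells of a kind and less RNA per cell cannot be told apart in any of these values.

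**Figure D3:**
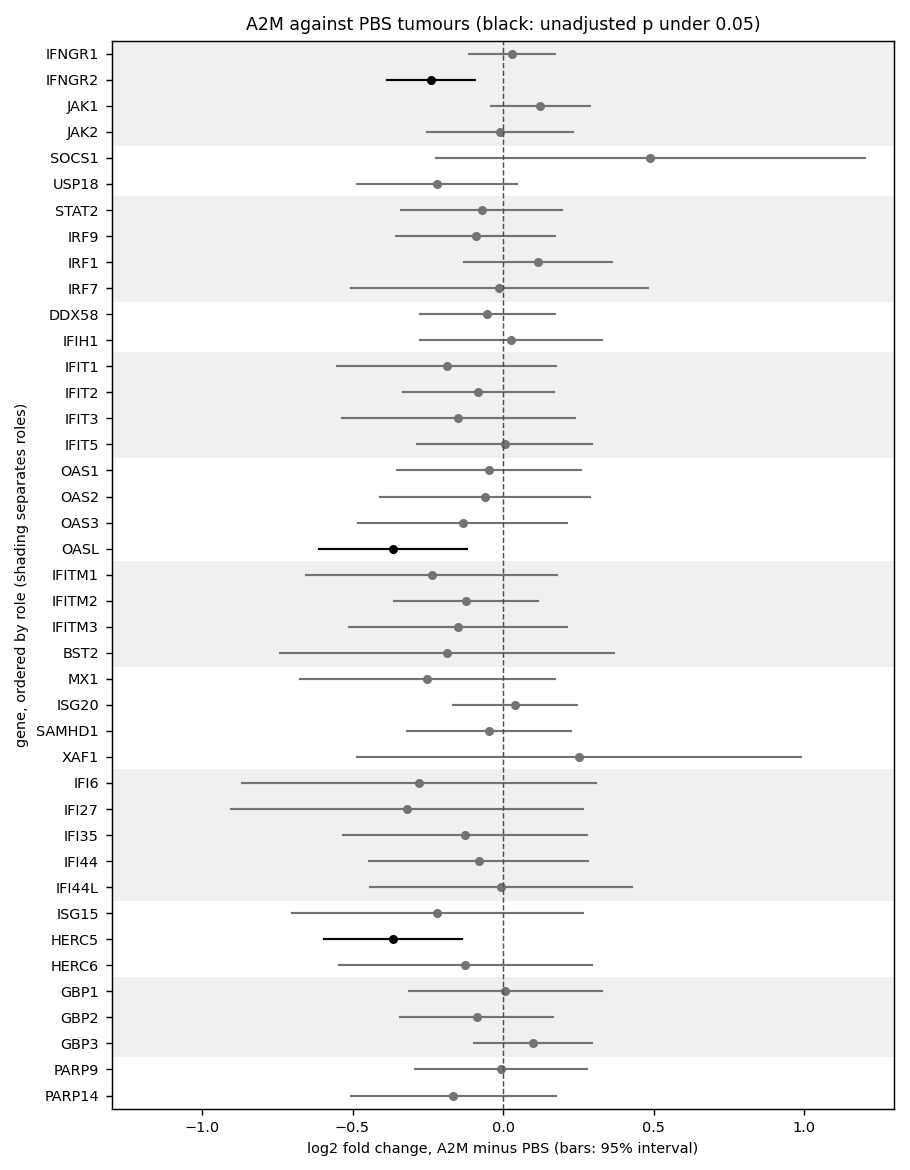
Log2 fold change of A2M minus PBS with its 95% interval (edgeR quasi-likelihood fit) for the 41 tested genes by role, with an unadjusted p under 0.05 in black. The estimates lie between -0.37 and 0.49, and XAF1 and SOCS1 have the widest intervals.

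Among the receptors and kinases, IFNGR2, the signalling chain of the interferon-gamma receptor (chr21:34775719-34851655, GRCh37), was the highest. Its level was 30.1, 28.6, 31.4, 30.3 and 31.1 RPKM in T123 to T127 and between 22.5 and 29.0 in the A2M tumours, with a median of 26.7. The lowest value was that of T131, and the highest A2M value just overlapped the lowest PBS value. After TMM scaling the groups no longer overlapped, as was so for 0.71% of all genes tested and for none of the other 40. The group means were 30.3 ± 1.06 (SD, n = 5) and 26.5 ± 2.15 RPKM (SD, n = 6), a log2 fold change of -0.24 (SE 0.0685, edgeR unadjusted p = 0.00363, adjusted p = 0.599). The ligand-binding chain IFNGR1 lay at 17.6 to 22.3 RPKM over all tumours, with a log2 fold change of 0.03 (SE 0.0663).

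JAK1, the kinase shared by both interferon classes, was at 23.9, 23.6, 22.1, 27.2 and 23.2 RPKM in T123 to T127 and at 23.5 to 30.0 in A2M tumours, with a median of 27.7. The groups overlapped, and T131 was highest. Its log2 fold change of 0.12 (SE 0.0766, edgeR unadjusted p = 0.130, adjusted p = 0.797) had the smallest p of the genes with a value above 0, and without T132 it was 0.16 (unadjusted p = 0.0470). JAK2, which serves the interferon-gamma receptor, was lower, at 2.17 to 3.44 RPKM, with a log2 fold change of -0.01.

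The feedback genes were SOCS1, an inhibitor of the JAK kinases, and USP18, which removes ISG15 from proteins and restrains the type I receptor. SOCS1 was at 1.87, 1.57, 0.789, 1.67 and 1.44 RPKM in T123 to T127 and at 0.965 to 4.40 in A2M tumours, with a median of 1.72. The groups overlapped, and T131 stood above all other tumours. Its log2 fold change was 0.49 (SE 0.331, 95% interval -0.22 to 1.201, edgeR unadjusted p = 0.162), and 0.14 without T131. USP18 was at 14.2, 11.3, 9.18, 9.91 and 11.9 RPKM in the PBS tumours and at 7.36 to 11.5 in A2M tumours, with a median of 10.6. Those ranges overlapped, T123 being highest and T129 lowest, with a log2 fold change of -0.22 (SE 0.123, edgeR unadjusted p = 0.0981, adjusted p = 0.770), -0.28 (unadjusted p = 0.0460) without T125 and -0.14 without T123.

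STAT2 and IRF9, parts of the type I complex, were the highest of the transcription factors. STAT2 was at 87.4, 89.7, 82.1, 81.4 and 107 RPKM in T123 to T127 and at 67.2 to 116 in A2M tumours, with a median of 85.3. The A2M values enclosed the PBS values, with T132 highest and T131 lowest. IRF9 ranged from 62.4 to 94.5 RPKM over the 11 tumours. IRF1, an early target of interferon-gamma, lay at 10.1 to 16.6 RPKM and IRF7, the factor that amplifies interferon-alpha production, at 11.9 to 31.3. Log2 fold changes of these 4 genes were between -0.09 and 0.12, with unadjusted p-values of 0.327 or more.

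The RNA sensors DDX58 (RIG-I) and IFIH1 (MDA5) were close in level. IFIH1 was at 14.9, 12.9, 9.89, 10.4 and 16.3 RPKM in T123 to T127 and at 10.1 to 16.3 in A2M tumours, with a median of 13.6. The groups covered nearly the same range. DDX58 lay at 9.41 to 14.1 RPKM, and the log2 fold changes were 0.03 for IFIH1 and -0.05 for DDX58.

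The IFIT genes encode proteins that bind foreign RNA and block its translation. They sit in 1 cluster on chromosome 10 (GRCh37), from the start of IFIT2 at 91043451 to the end of IFIT5 at 91181362. IFIT3, the highest by mean, was at 23.0, 18.1, 12.3, 12.3 and 24.6 RPKM in T123 to T127 and at 12.3 to 19.5 in A2M tumours, with a median of 17.1. T123 and T127 stood above all A2M tumours and T125 and T126 at the low end. IFIT1 ranged from 10.5 to 23.4 RPKM, IFIT2 from 12.3 to 19.0 and IFIT5 from 4.43 to 7.97. Their log2 fold changes lay between -0.19 and 0.0049, and the smallest unadjusted p was 0.286.

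OAS1, OAS2 and OAS3 make the oligoadenylates that activate RNase L, and OASL is a relative without that activity. OAS1 was at 34.6, 30.5, 27.5, 23.7 and 39.5 RPKM in T123 to T127 and at 24.4 to 38.2 in A2M tumours, with a median of 30.8. The groups overlapped almost fully. OAS2 ranged from 15.6 to 29.1 RPKM and OAS3 from 21.3 to 37.8. OASL (chr12:121455566-121477049, GRCh37) was at 17.0, 14.1, 12.6, 11.9 and 14.4 RPKM in T123 to T127 and at 9.56 to 14.7 in A2M tumours, with a median of 10.6. Of the A2M tumours, T128 alone lay within the PBS range. The group means were 14.0 ± 1.95 (SD, n = 5) and 11.2 ± 1.799 RPKM (SD, n = 6), a log2 fold change of -0.37 (SE 0.115, edgeR unadjusted p = 0.00680, adjusted p = 0.640). For OAS1, OAS2 and OAS3 it was between -0.13 and -0.05.

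IFITM1, IFITM2 and IFITM3 are membrane proteins that hinder the entry of viruses, and BST2, or tetherin, holds budding virus at the cell surface. IFITM3 was at 237, 202, 163, 122.96 and 235 RPKM in T123 to T127 and at 142 to 218 in A2M tumours, with a median of 176. The PBS tumours held both the highest value and the lowest one. IFITM1 ranged from 74.0 to 157 RPKM, IFITM2 from 54.8 to 85.2 and BST2 from 55.0 to 134. Log2 fold changes were between -0.24 and -0.12, and the smallest unadjusted p was 0.241. The IFITM genes are close paralogs, and how shared reads were counted is not known, so the split of reads between them is uncertain.

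Of the other effectors, MX1 is a GTPase that traps viral capsids, ISG20 an RNA exonuclease, SAMHD1 a hydrolase of the nucleotides used for DNA synthesis, and XAF1 a partner of the apoptosis inhibitor XIAP. MX1 was at 61.0, 52.7, 32.9, 28.9 and 56.6 RPKM in T123 to T127 and at 28.4 to 51.7 in A2M tumours, with a median of 41.9. The 3 highest values were PBS tumours, but T125 and T126 were among the lowest. XAF1 (chr17:6658766-6678966, GRCh37) was at 9.85, 6.25, 4.57, 4.76 and 14.9 RPKM in the PBS tumours and at 4.003 to 16.2 in A2M tumours, with a median of 9.44. Its 4.04-fold range spanned the groups, with T132 and T127 high and T129 low. The log2 fold change of XAF1 was 0.25 (SE 0.343), 0.07 without T132 and 0.60 without T127, and that of MX1 was -0.25 (SE 0.197), -0.15 without T123 and -0.39 (unadjusted p = 0.0438) without T126. ISG20 lay at 19.7 to 25.4 RPKM and SAMHD1 at 11.9 to 18.9, with log2 fold changes of 0.04 and -0.05.

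The IFI genes encode proteins of varied or partly known function, of which IFI6 and IFI27 are mitochondrial. IFI6 (chr1:27992575-27998723, GRCh37) was at 269, 149, 126.1, 92.7 and 275 RPKM in T123 to T127 and at 101 to 220 in A2M tumours, with a median of 136. Within the PBS group alone it varied 2.97-fold, between T126 and T127. IFI27 ranged from 29.8 to 90.7 RPKM, IFI35 from 11.0 to 22.2, IFI44 from 37.5 to 76.3 and IFI44L from 19.6 to 44.9. All 5 log2 fold changes were below 0 with TMM factors, from -0.32 (IFI27) to -0.0062 (IFI44L, which was above 0 with library size alone or upper-quartile factors), and the smallest unadjusted p was 0.259. IFI27 was at -0.19 without T123 and at -0.56 (edgeR unadjusted p = 0.0302) without T128.

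ISG15 is a ubiquitin-like protein that is attached to other proteins, and HERC5 is the ligase that attaches it in human cells. ISG15 was at 655, 414, 354, 234 and 494 RPKM in T123 to T127 and at 302 to 508 in A2M tumours, with a median of 332. By mean RPKM it stood at the 99.3rd percentile of all genes tested, and the A2M range fell within the PBS range. HERC5 (chr4:89378270-89427314, GRCh37) was at 2.31, 2.39, 1.92, 2.24 and 2.25 RPKM in T123 to T127 and at 1.42 to 2.08 in A2M tumours, with a median of 1.79. Its groups overlapped only between T125 and T112. The means were 2.22 ± 0.178 (SD, n = 5) and 1.77 ± 0.226 RPKM (SD, n = 6), a log2 fold change of -0.37 (SE 0.106, edgeR unadjusted p = 0.00409, adjusted p = 0.599), on 85 to 284 counts per tumour. The related HERC6 lay at 6.44 to 15.2 RPKM with a log2 fold change of -0.12.

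GBP1, GBP2 and GBP3 are large GTPases that gather on the vacuoles of pathogens. GBP3 was at 27.6, 22.4, 20.4, 22.8 and 26.0 RPKM in T123 to T127 and at 22.3 to 29.5 in A2M tumours, with a median of 26.5. The groups overlapped, T112 being highest and T125 lowest, with a log2 fold change of 0.10 (SE 0.0905, edgeR unadjusted p = 0.291). GBP1 ranged from 9.94 to 17.5 RPKM and GBP2 from 6.85 to 10.8. PARP14, an ADP-ribosyltransferase, was at 47.4, 41.8, 29.0, 39.0 and 43.99 RPKM in T123 to T127 and at 27.1 to 49.9 in A2M tumours, with a median of 37.7. T130 was highest and T131 lowest, both from the A2M group. PARP9, which works with the ubiquitin ligase DTX3L, lay at 14.4 to 23.8 RPKM, and the log2 fold changes were -0.16 for PARP14 and -0.0070 for PARP9.

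Tumours of 1 group differed more in these genes than in most genes. The SD between tumours of a group, in log2 CPM (TMM-scaled counts per 1000000, prior count 2), had a median of 0.276 over the 41 genes and of 0.185 over all genes tested, and 35 of the 41 lay above the latter. It was largest in XAF1 (0.70), SOCS1 (0.61) and IFI6 (0.56), and smallest in IFNGR1 (0.091), IFNGR2 (0.11) and JAK1 (0.13). Between the highest and lowest tumour, 15 genes differed by more than 2-fold in RPKM. With every library thinned to the smallest total, an alternative chosen after seeing the data, the median SD was 0.267.

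The genes also went up and down together. After each group's mean was subtracted, the median Spearman correlation over 11 tumours was 0.60 for the 820 pairs of genes, of which 693 were positive, and 0 for all pairs of tested genes. It was above 0.5 in 59.1% of the 820 pairs and in 12.5% of all pairs. Thinned libraries gave the same median of 0.60. The points share their libraries and depth, and the values describe these tumours.

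The highest pairs were IFITM1 with IFITM3 (0.99), GBP1 with GBP3 (0.98) and IFI27 with BST2 (0.97), of which the first and the second are close paralogs whose reads may be shared. STAT2 and IRF9 reached 0.95. Median correlations within roles were 0.91 for the IFITM genes and BST2, 0.84 for the OAS genes, 0.78 for the IFIT genes, 0.73 for the IFI genes, 0.65 for the GBP genes, 0.61 for ISG15, HERC5 and HERC6, 0.60 for the other effectors, 0.50 for the transcription factors and 0.086 for the receptors and kinases. Against the mean of all others, OAS2 (0.99), HERC6 (0.98) and PARP9 (0.95) followed the common pattern most closely, and 34 of the 41 genes were above 0.5.

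The receptor and kinase genes had lower correlations with that pattern. Their median correlation with the other 37 genes was -0.12 over 148 pairs, and 0.676% of these pairs were above 0.5. Against the mean of all others, IFNGR1 was at 0.036, IFNGR2 at -0.055, JAK2 at -0.25 and JAK1 at -0.45. The lowest pair of all was JAK1 with IRF7, at -0.90. Of the rest, SOCS1 was at 0, GBP2 at 0.35 and ISG20 at 0.35.

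These correlations moved with a contrast of short with long genes (mean log2 CPM of genes under 1000 exon bases minus that of genes over 5000, within groups). Whether the contrast reflects RNA quality was not tested. The contrast was 0.17 in T132, 0.11 in T128, 0.070 in T123 and T125, 0.044 in T124 and T127, 0.034 in T129, -0.098 in T112, -0.10 in T130, -0.11 in T131 and -0.23 in T126. Over the 11 tumours its Spearman correlation was -0.98 with JAK1 and -0.65 with JAK2, which are themselves over 5000 bases. It was 0.90 with IRF7, 0.87 with ISG15 and 0.85 with BST2. ISG15, IFITM1, IFITM2, IFITM3, IFI6, IFI27 and ISG20 are themselves under 1000 bases. The other genes of the list over 5000 bases were at 0.52 (OAS2), 0.40 (IFI44L), 0.38 (OAS3), 0.33 (PARP9) and 0.13 (PARP14). The correlation was above 0.5 for 17 of the 41 genes, 0.50 for their mean, and -0.0091 in the median over all genes tested.

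With the contrast removed by a linear fit, an alternative chosen after seeing the data, the common pattern of the genes was as close, with a median pairwise correlation of 0.65 and 34 of 41 genes above 0.5 against the mean of the others. JAK1 with IRF7 then stood at -0.33, and the receptors and kinases with the other genes at a median of 0.01. Against the mean of the others, IFNGR2 was at -0.25, JAK1 at -0.045, IFNGR1 at 0.17 and JAK2 at 0.34. JAK1 thus lost most of its negative value, at -0.045 instead of -0.45, and JAK2 turned positive, while all 4 genes remained at or under 0.34. The median SD was 0.251 with the contrast removed.

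**Figure D4:**
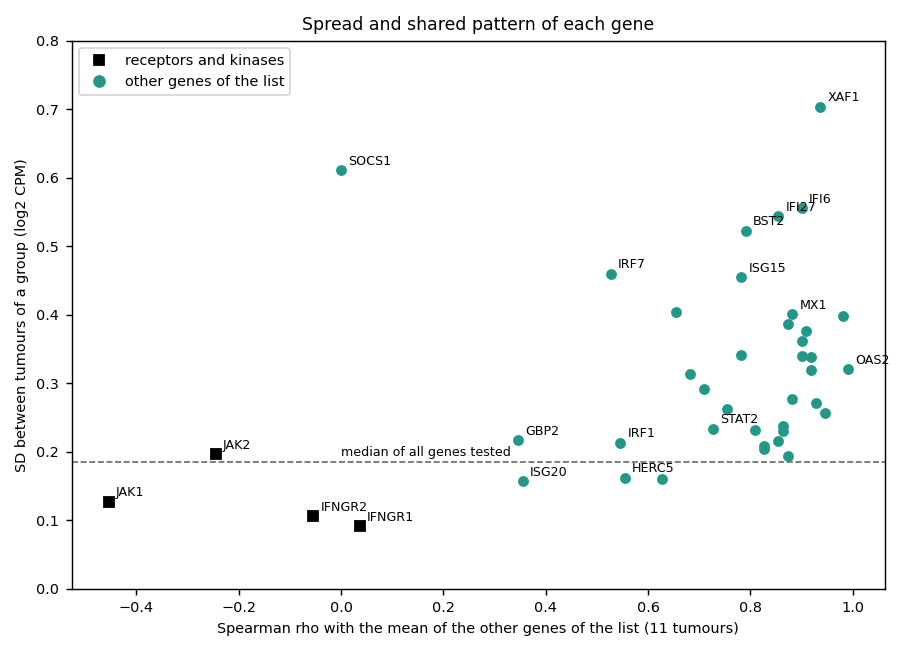
SD between tumours of a group (log2 CPM) against the Spearman correlation of each gene with the mean of the other genes over 11 tumours, for the 41 tested genes. Receptors and kinases (squares) lie at -0.45 to 0.036 with SDs of 0.091 to 0.20, and the dashed line is the median SD of all genes, 0.185.

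Averaged over the 41 genes as z-scores, the tumours ran from T127 (0.90), T123 (0.68) and T128 (0.60) at the top, through T130 (0.48), T132 (0.31), T112 (0.25) and T124 (0.11), to T131 (-0.52), T125 (-0.80), T126 (-0.89) and T129 (-1.12). Each group held tumours at both ends, as the z-scores were taken within the groups. In RPKM, T123 was the highest tumour for 14 genes and T127 for 10, and T129 was the lowest for 18. T127 had the largest total and T129 the smallest, whereas T125, with the next largest total, came 9th of 11 and T132, with the next smallest, 5th. The summed leukocyte markers were 5.58 RPKM in T127, 6.02 in T123 and 6.24 in T129. PECAM1, an endothelial gene at 3.15 to 5.03 RPKM, had a correlation of 0.71 with the mean of the 41 genes, and its part was not tested.

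**Figure D5:**
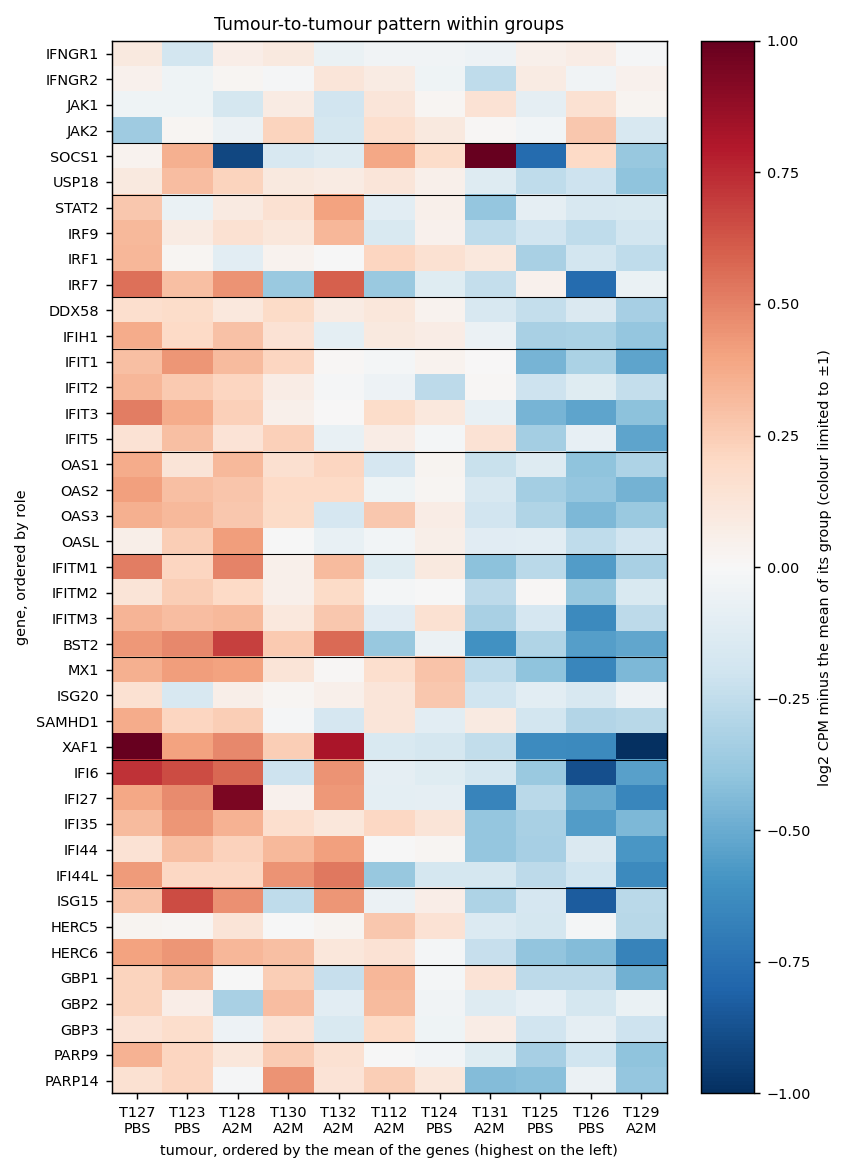
Log2 CPM of each gene minus the mean of its group, in the 11 tumours ordered by the mean z-score from T127 (0.90) to T129 (-1.12). Most genes run from above the group mean (red) to below it (blue), whereas IFNGR1, IFNGR2, JAK1, JAK2 and SOCS1 do not.

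The genes outside the list with the most similar pattern over the 11 tumours were DTX3L (0.95), TRPV1 (0.94), COQ6 (0.91), TRIM22 (0.91), MX2 (0.90) and RSAD2 (0.90), by Spearman correlation with the mean of the 41. Of these 6, 4 are on a wider list of 81 interferon pathway genes, of which 72 were tested. None of the 72 passed an adjusted p of 0.01 in edgeR, and at an unadjusted p under 0.05 TRIM5 was higher (log2 fold change 0.17) while IFNLR1 (-0.20) and TMEM173, which encodes STING (-0.34), were lower. The median correlation of the 72 with the mean of the 41 was 0.57, and 0.75 for the 45 other induced genes among them, of which 35 were above 0.5. By role, correlations were above 0.5 in 1 of 7 sensing genes (IKBKE) and none of the 5 receptor and kinase genes, the 6 restraining genes and the 2 ligands tested. UBA7 and UBE2L6, which activate and carry ISG15, were both at 0.85.

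Interferons themselves were scarce among the human reads. Interferon RNA of the host, whose reads were set apart, is not covered by these values. In the mouse reads of PC-3 tumours, the paper reports IFNG as higher with A2M. IFNG had 0 counts in all 11 tumours, IFNB1 0 to 6, and IFNA2, IFNK, IFNL2 and IFNL3 at most 1. IFNE, an interferon of epithelia, was the exception at 6.25 to 10.4 RPKM, with a correlation of -0.58 with the mean of the 41 genes. STAT3 was at 0.514 to 0.679 RPKM. The type I receptor chains IFNAR1 (10.6 to 12.3 RPKM) and IFNAR2 (4.13 to 5.64) and the kinase TYK2 (57.3 to 78.7) had correlations of -0.18, -0.06 and 0.39.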

How the data were processed

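RNA of 11 PC-3 tumours (5 PBS, 6 A2M) was sequenced with 1 library each. The authors prepared unstranded TruSeq libraries, used xenome to set mouse reads apart, aligned what was human to hg19 with TopHat2 and counted it per RefSeq gene with featureCounts (versions not given in the sources used here; bcl2fastq was 1.8.4, per the submitters' processing notes). They deposited raw counts, RPM (each count divided by the total of its tumour, with a largest difference from the counts of 4.99e-07) and RPKM (RPM per exon length). Fragments that could not be assigned to 1 species do not enter the human counts, and reads shared by gene copies may be lost or split.

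Counts were filtered with filterByExpr, scaled by TMM and compared between groups in edgeR 4.0.16 (R 4.3.3), with its quasi-likelihood test on 16630 genes and without covariates, with a Benjamini-Hochberg adjusted threshold of 0.01. SE is the size of the log2 fold change divided by the square root of F, and the steps were checked on simulated data. Totals lay between 16958533 and 35874381, and no 2 tumours agreed within counting noise (chi-square per degree of freedom 8.47 to 59.2). Levels are RPKM. Correlations are Spearman over group-centred log2 CPM (prior count 2). The members, the wider list of 81 genes and the marker lists were chosen with earlier results of these data known, and the values of 2 listed genes are not reported here. Each PBS value is given for the highest gene of each role by mean RPKM. The same holds for the 3 smallest unadjusted p-values in each direction and the 3 largest SDs. The A2M tumours are then given as a range and a median. A gene counted as similar if it was among the 5 highest correlations, ties included. Alternatives were RLE or upper-quartile factors, library size alone, no filter, a minimum of 10 counts per tumour, DESeq2 1.42.0, limma-voom (limma 3.58.1), the edgeR exact test, log2(RPKM + 0.1), each tumour left out, and, added after seeing the data, thinning and removal of a contrast of short with long genes. Positions are GENCODE on GRCh37, and promoter windows are RefSeq on GRCh38.p14, which were not mixed. Plots were made in Python 3.11.15 (matplotlib 3.10.9).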

Additional observations from a re-analysis of the deposited data

Results flagged for a closer look

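OASL in the A2M tumour T128 lay at 14.7 RPKM, far from the 9.56 to 11.2 RPKM of the other 5 A2M tumours, a gap of 0.679 of the whole range of the group. It was the only value of this kind among 86 sets of values looked at, and chance would give about 1 in 20, or 4.3. A set was 1 gene, the total counts or the mean z-score of the genes, in 1 group.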

How the results depend on the processing

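No gene of the list passed an adjusted p of 0.01 in edgeR, DESeq2 or limma-voom or with any tumour left out. At an unadjusted p under 0.05 stood 3 or 4 of the 41 in each setting. The share of all genes at that p ran from 4.09% without T125 to 10.1% without T132, with 4 of the 41 in both. At an unadjusted p under 0.01, 3 genes of the list stood with all tumours and TMM factors, and 1 with library size alone or without T124 or T131. For that p no share of all genes was computed. Of 779 recomputed log2 fold changes, 718 kept their direction and 61, in 16 genes, reversed. With all tumours, the log2 fold changes that turned above 0 were IFI44L (0.039), IRF7 (0.033), JAK2 (0.032) and PARP9 (0.036) with library size alone, the same 4 at 0.0090, 0.0035, 0.0025 and 0.0066 with upper-quartile factors, and JAK2 (0.0085) in limma-voom. With 1 tumour left out, the ranges of genes that reversed were DDX58 -0.11 to 0.00553, GBP1 -0.0604 to 0.0914, IFI44 -0.17 to 0.0153, IFI44L -0.12 to 0.12, IFIH1 -0.0508 to 0.13, IFIT2 -0.14 to 0.00918, IFIT5 -0.0726 to 0.0902, IFNGR1 -0.0141 to 0.0544, IRF7 -0.16 to 0.14, ISG20 -0.00106 to 0.11, JAK2 -0.0915 to 0.0596, OAS1 -0.14 to 0.0553, OAS2 -0.15 to 0.0507, PARP9 -0.0838 to 0.0872, SAMHD1 -0.12 to 0.0569 and STAT2 -0.16 to 0.00198. The cause was not tested. The median log2 fold change ranged from -0.15 to -0.01 with 1 tumour left out, the median SD from 0.247 to 0.293 and the median pairwise correlation from 0.53 to 0.65. Leaving out 1 tumour brought 4 further genes to an unadjusted p under 0.05, IFI27 without T128, MX1 without T126, USP18 without T125 and JAK1 without T132. No paired analysis was possible because the groups share no tumour numbers. Depth limits DHX58 and the interferon genes other than IFNA1 and IFNE, which had 6 counts or fewer in every tumour.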
